A study of Mus with 9 samples.

Results

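Neurotrophins are secreted growth factors that keep neurons alive and tune the strength of their synapses. Each is made as a longer precursor that proteases cut to the mature form. The mature factors act through Trk receptor tyrosine kinases, whereas the precursors bind a complex of the p75 receptor (p75NTR) and sortilin. In the hippocampus, brain-derived neurotrophic factor (BDNF) acting on TrkB is the best known member of the family, because neuronal activity raises its transcription and the protein is needed for lasting synaptic potentiation.

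The members described here were 7 genes, taken by gene symbol from the 2 deposited tables, which list 22206 probe sets each for 21978 gene symbols. They were 3 ligand genes (Bdnf, Ntf3 and Ntf5) and 4 receptor genes (Ntrk2, Ntrk3, Ngfr and Sort1), and each had 1 probe set. Hippocampal RNA was hybridised to Clariom S Mouse arrays, with 3 arrays in each of 3 groups. SAMP8 is an inbred strain that ages and loses memory early. SAMR1 is the related senescence-resistant strain that served as the control, so the strains differ at many loci rather than by 1 allele. SAMR1 and nontreated SAMP8 mice received vehicle only (water by the methods, saline by the sample records). TG-treated SAMP8 mice received trigonelline (TG), an alkaloid of coffee and fenugreek, in a daily oral dose of 5 mg/kg over 30 days, with dosing carried on while the mice were tested in a water maze. The age was given as 16 weeks, which by the methods is that of the mice taken into the study. Acclimatization, dosing and the maze came after that, so the mice were older when the hippocampus was taken. The arrays came from animals drawn at random from each group. The question was how the transcripts of this signalling family stood in the senescence-prone strain and after TG.

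The tables hold 1 average per group, as log2 signal. Every value below is therefore the authors' average of a group or a difference of such averages, and no spread between animals was computed, since values per array were not analysed here. The authors' own p-values in the tables were not used, so no difference is called here larger or smaller than the spread between mice. In its place, each difference was read against the differences of all probe sets and of the 5% slice of probe sets with the most similar signal. A gene was counted as past the limit where averages differed by more than 1.5-fold, which is 0.585 on the log2 scale. The probe sets of odorant and vomeronasal receptors, genes little used outside the nose, showed how dim genes behaved. The 1455 of them had a median difference of -0.11 between SAMP8 and SAMR1 and of 0.06 between TG-treated and nontreated SAMP8. Tissue is bulk, so fewer cells of a type and less RNA per cell cannot be told apart. The labelled tissue was set beside the brightest of the listed pyramidal and granule cell markers. Neurod6 of pyramidal neurons averaged 14.86, 14.85 and 14.88 and Prox1 of granule cells 11.26, 11.85 and 11.00 in SAMR1, nontreated SAMP8 and TG-treated SAMP8. All were above the highest average of any nose receptor probe set (8.66). Other listed markers were dimmer, down to Tdo2 at 4.89, 4.96 and 5.05. The mean over the 9 pyramidal markers was 8.26, 8.66 and 8.47, and over the 6 granule cell markers 7.82, 8.06 and 7.90. These means were not above the highest average of any nose receptor probe set. They were above the 95th percentile of those probe sets, which was 5.92, 5.54 and 5.60 in the same order of groups. Tdo2 in every group and Spink8 in SAMR1 (5.20) lay below that percentile. Of 5 general neuron markers (Rbfox3, Snap25, Syt1, Tubb3 and Nefl), 0 were past the 1.5-fold limit between SAMP8 and SAMR1 or after TG. Of all probe sets, 5.0% were higher and 6.08% lower past it between the strains, and 4.48% higher and 3.74% lower after TG. Between TG-treated SAMP8 and SAMR1 1, Tubb3, was past the limit, higher by 0.77, where 5.62% of all probe sets were higher past the limit. With 5 markers, such counts are too few to be read as a share. Syt1 stood at 19.70 in every group, close to the highest average in the tables (19.93), where a difference may not show.

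Of the 7 members, 0 were past the limit between SAMP8 and SAMR1 in either direction, where 5.0% of all probe sets were higher and 6.08% lower. Between TG-treated and nontreated SAMP8, 1 of 7 was past it, Bdnf, which was lower, where 3.74% of all probe sets were lower and 4.48% higher. Between TG-treated SAMP8 and SAMR1, 0 of 7 were past it, where 5.62% of all probe sets were higher and 4.83% lower. With 7 members, 1 call is too few to be read as a share against that background. The first 2 comparisons share the SAMP8 averages, so an average that is by chance high in SAMP8 looks higher in one and lower in the other. The last comparison sets averages from both tables against each other, which was possible because the SAMP8 averages were identical in both (largest gap 0.0).

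**Figure D1:**
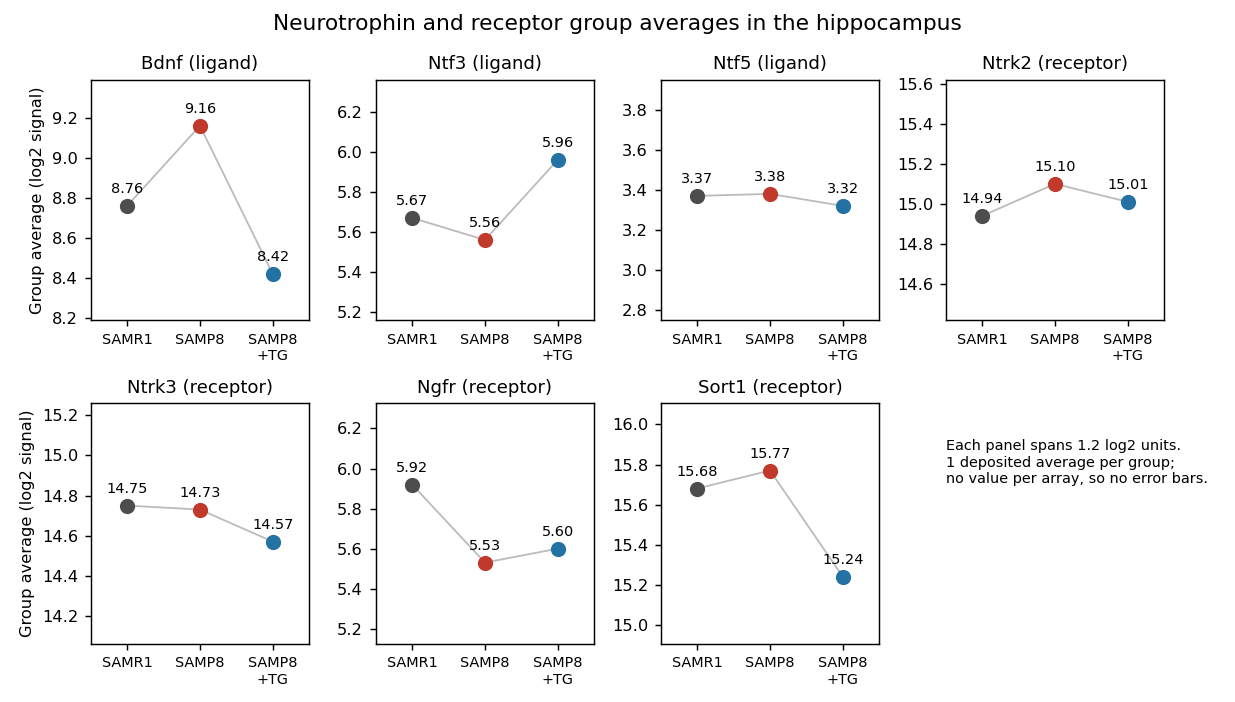
Group averages (log2 signal, vertical axes) of the 3 ligand and 4 receptor genes in SAMR1, SAMP8 and TG-treated SAMP8. Each point is 1 deposited average, with no error bar because only group averages were analysed here, and every panel spans the same range. Bdnf spanned the widest range of the members, from 8.42 in TG-treated SAMP8 to 9.16 in SAMP8, and Ntf5 the narrowest.

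Among the ligands, Bdnf encodes BDNF itself, which binds TrkB and, as its precursor, p75NTR and sortilin. The gene lies at chr2:109674700-109727043 (GRCm38). Its average was 8.76 in SAMR1, 9.16 in nontreated SAMP8 and 8.42 after TG. The transcript was thus highest in nontreated SAMP8 and lowest after TG, with SAMR1 in between.

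SAMP8 stood 0.40 above SAMR1 on the log2 scale, which is 1.32-fold. Of all probe sets, 12.0% lay at least as far above, and of those with similar signal 20.1% did, the latter with a median difference of 0.14. Many probe sets on the array thus differed between the strains by as much as Bdnf. With the distributions of the 3 group averages made equal by quantile normalization, it shrank to 0.26.

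TG-treated SAMP8 stood 0.74 below nontreated SAMP8 for Bdnf, a log2 difference of -0.74 or 1.67-fold. Only 1.64% of all probe sets and 2.43% of those with similar signal lay as far down, the latter with a median difference of -0.07. The value was -0.67 after quantile normalization and -0.77 after subtracting group medians, past the limit in both. TG-treated SAMP8 was also below SAMR1, by -0.34 on the log2 scale (1.27-fold), and 15.5% of all probe sets lay as far down in that comparison. The lower Bdnf average after TG was the largest difference of any member in any of the 3 comparisons.

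The array reads the sum of Bdnf transcripts that its 1 probe set matches, and it does not separate the transcripts that start from the gene's several promoters. The study also assayed BDNF protein in hippocampal tissue by ELISA. Those values were not analysed here, and RNA and protein of the same gene need not move together. The RNA averages alone placed SAMP8 above SAMR1, and TG-treated SAMP8 below both.

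Bdnf in this tissue is made mainly by granule and pyramidal neurons, so markers of these cells are set beside it. Of 6 granule cell markers, 2 were past the limit and higher in SAMP8 than in SAMR1 (0 after quantile normalization) and 1 was lower after TG, with median differences of 0.19 and -0.10. The 1 that was lower after TG was Prox1, the transcription factor that keeps granule cell identity. Its averages, given above, were highest in nontreated SAMP8 and lowest after TG, as for Bdnf. The granule cell markers as a set did not share this order. In direction alone, 3 of the 6 were higher and 3 lower after TG. Between TG-treated SAMP8 and SAMR1, 5 of the 6 were higher and only Prox1 was lower. Of 9 pyramidal cell markers, 3 were higher in SAMP8 and 1 was lower after TG, with medians of 0.31 and -0.17. In direction alone, 3 of the 9 were higher, 5 lower and 1 equal after TG. Against SAMR1, 6 were higher and 3 lower in TG-treated SAMP8. Wfs1 at 10.79, 11.23 and 10.75 and Rgs14 at 8.33, 8.45 and 8.02 had the order of Bdnf, and the others did not. Over all probe sets, 11108 were higher and 10732 lower after TG, and 10671 higher and 11195 lower against SAMR1. Of all probe sets, 5.0% were higher and 6.08% lower past the limit in SAMP8 than in SAMR1. After TG 4.48% were higher and 3.74% lower. With 6 and 9 markers, such counts are too few to be read as a share. The part of these cell types in the Bdnf result was not tested.

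Markers of meninges, the fibrous coat of the brain that can be carried along in dissection, also differed between groups. Of 13, 5 were higher and 2 lower past the limit in SAMP8 than in SAMR1, beside 5.0% and 6.08% of all probe sets. After TG 0 were higher and 7 lower, beside 4.48% and 3.74%. The markers' median differences were 0.25 and -0.66. The mean of their averages was 6.58 in SAMR1, 6.93 in nontreated SAMP8 and 6.23 after TG. Of 8 thalamus markers, 2 were higher in SAMP8 and 2 lower after TG, and of 8 choroid plexus markers 2 were higher in SAMP8, with 2 higher and 1 lower after TG. The part of these tissues in the members' values was not tested.

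Ntf3 encodes neurotrophin-3, the main ligand of TrkC. The gene lies at chr6:126101412-126166772. Its average was 5.67 in SAMR1, 5.56 in nontreated SAMP8 and 5.96 after TG, so the highest value was after TG. The log2 difference was -0.11 between SAMP8 and SAMR1 (1.08-fold) and 0.40 between TG-treated and nontreated SAMP8 (1.32-fold). In the TG comparison 11.2% of all probe sets and 14.2% of those with similar signal lay as far up. The probe set lay near the top of the range of the nose receptor probe sets, 95.7% of which were dimmer, and 15.4% of those receptor probe sets lay as far up as Ntf3 after TG. Ntf3 and Bdnf lay on opposite sides of 0 in the TG comparison.

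Ntf5 encodes neurotrophin-4, which shares the TrkB receptor with BDNF. The gene lies at chr7:45413695-45417179. The averages of 3.37 in SAMR1, 3.38 in nontreated SAMP8 and 3.32 after TG were nearly level. Only 9.6% of the nose receptor probe sets were dimmer, so the array could show little of this gene in hippocampus. Ntf5 was the 1 member in the dimmest 25% of all probe sets, and the other 6 were above that.

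**Figure D2:**
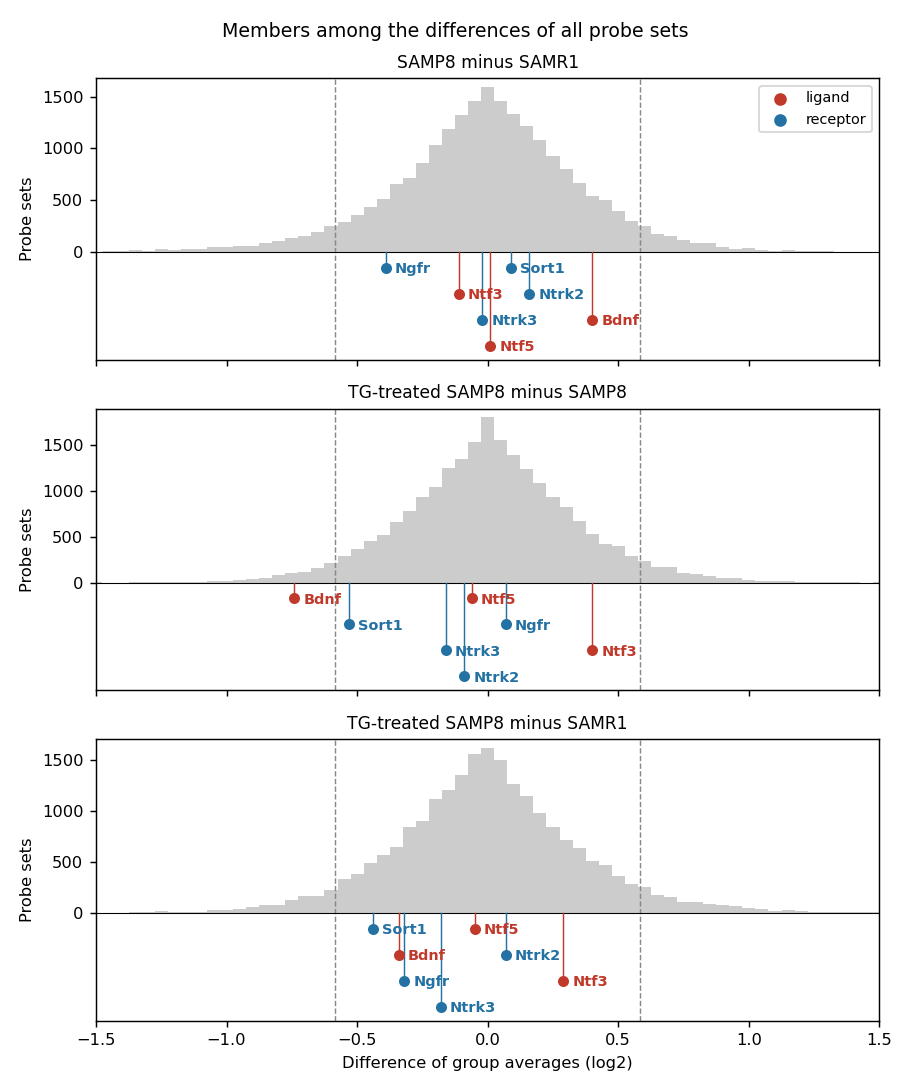
Differences of group averages (log2, horizontal axis) for all 22206 probe sets (grey, counts on the vertical axis) with the ligands in red and the receptors in blue below each histogram. Dashed lines mark 1.5-fold, and 141, 10 and 96 probe sets beyond the axis range are not drawn from top to bottom. Bdnf, at -0.74 in TG-treated minus nontreated SAMP8, was the 1 member outside the dashed lines, and Sort1 at -0.53 was the next lowest there.

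Among the receptors, Ntrk2 encodes TrkB, the kinase receptor of BDNF and neurotrophin-4. The gene lies at chr13:58806472-59133970. Its average was 14.94 in SAMR1, 15.10 in nontreated SAMP8 and 15.01 after TG. The log2 differences were 0.16 between SAMP8 and SAMR1 (1.12-fold) and -0.09 after TG (1.06-fold). Of all probe sets, 30.9% lay as far above SAMR1 as Ntrk2 did. After quantile normalization the strain difference was 0.03. The receptor of BDNF was near level over the groups, while the averages of Bdnf spanned 0.74.

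Ntrk2 gives rise to a full-length kinase and to truncated forms without the kinase, the latter abundant in astrocytes. A single probe set does not tell these forms apart. Of 7 astrocyte markers, 2 were higher past the limit in SAMP8 than in SAMR1, beside 5.0% of all probe sets. After TG 0 of the 7 differed past it, beside 4.48% higher and 3.74% lower. The median differences of these markers were 0.17 and -0.03. Their part in the Ntrk2 values was not tested.

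Ntrk3 encodes TrkC, the receptor of neurotrophin-3, at chr7:78179986-78581034. Its average was 14.75 in SAMR1, 14.73 in nontreated SAMP8 and 14.57 after TG. The strain difference of -0.02 changed sign when group medians were subtracted (0.03). After TG the difference was -0.16 (1.12-fold), and 28.7% of all probe sets lay as far down. The receptor was therefore slightly lower after TG, whereas its ligand Ntf3 was higher, and neither was past 1.5-fold.

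Ngfr encodes p75NTR, which binds all neurotrophins and, with sortilin, their precursors. The gene lies at chr11:95568818-95587698. The averages were 5.92 in SAMR1, 5.53 in nontreated SAMP8 and 5.60 after TG, so both SAMP8 groups were below SAMR1. The strain difference was -0.39 on the log2 scale (1.31-fold), with 13.1% of all probe sets and 20.8% of those of similar signal as far down. Like Ntf3, it lay near the top of the range of the nose receptor probe sets, 95.3% of which were dimmer, and 21.9% of those were as far down in SAMP8 as Ngfr was. The difference after TG was 0.07 (1.05-fold).

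Most p75NTR in the hippocampus is carried by fibres of basal forebrain cholinergic neurons, whose cell bodies, and so most of their RNA, lie outside it. Of the 6 markers of these neurons, Chat, the enzyme that makes acetylcholine, was at 2.72, 2.84 and 2.70 in SAMR1, SAMP8 and TG-treated SAMP8, and Slc18a3, the vesicular transporter, at 3.23, 2.73 and 2.93. The averages of Slc5a7, Gbx1 and Isl1 ranged from 3.32 to 4.91, and Lhx8 was the brightest at 6.10, 6.04 and 5.95. None of the 6 was past the limit between SAMP8 and SAMR1 or after TG. Markers of endothelial and mural cells differed more. Of 7, 3 were higher and 1 lower past the limit in SAMP8 than in SAMR1, beside 5.0% and 6.08% of all probe sets. After TG 1 was higher and 1 lower, beside 4.48% and 3.74%. The median differences of these markers were 0.52 and -0.22. Their part in the Ngfr values was not tested.

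Sort1 encodes sortilin, which escorts the BDNF precursor into secretory vesicles and acts as the partner of p75NTR at the surface. The gene lies at chr3:108283974-108361519. Its average was 15.68 in SAMR1, 15.77 in nontreated SAMP8 and 15.24 after TG. SAMR1 and SAMP8 were close (difference 0.09, 1.06-fold), and TG-treated SAMP8 was below both.

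After TG the log2 difference of Sort1 was -0.53 (1.44-fold), inside the 1.5-fold limit. Of all probe sets 5.2%, and of those with similar signal 5.58%, lay as far down. Against SAMR1 the difference was -0.44 (1.36-fold). Bdnf and Sort1 were therefore the members with the lowest differences after TG, 1 on each side of the limit.

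Read by role, the median log2 difference between SAMP8 and SAMR1 was 0.01 over the 3 ligands and 0.03 over the 4 receptors, the latter turning to -0.04 after quantile normalization, beside 0.00 over all probe sets. After TG the medians were -0.06 for ligands and -0.12 for receptors, beside 0.01 over all probe sets. Between TG-treated SAMP8 and SAMR1 they were -0.05 for ligands and -0.25 for receptors, beside -0.01 over all probe sets. The ligands ranged from -0.74 to 0.40 after TG and the receptors from -0.53 to 0.07, so the range of the ligands enclosed that of the receptors. In direction alone, 1 of 3 ligands and 1 of 4 receptors were higher after TG.

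A lower limit took in more members but also most of the array. At 1.1-fold, the fold the study's methods joined to a p-value, 3 of 7 members were past it between SAMP8 and SAMR1 (Bdnf and Ntrk2 higher, Ngfr lower), where 65.5% of all probe sets were. After TG 4 of 7 were (Bdnf, Sort1 and Ntrk3 lower, Ntf3 higher), where 63.4% of all probe sets were. At 1.2-fold the members numbered 2 and 3 beside 40.8% and 38.2% of all probe sets. At 2-fold they numbered 0 and 0 beside 2.22% and 0.761%.

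The relatives of sortilin were read the same way. Sorl1, a sorting receptor of the amyloid precursor, was near level at 13.00, 13.09 and 13.03 in SAMR1, nontreated SAMP8 and TG-treated SAMP8, as was Sorcs3 at 8.64, 8.72 and 8.72. Sorcs1 averaged 6.97, 7.31 and 7.16.

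Sorcs2, a sortilin relative that binds the BDNF precursor with p75NTR, averaged 7.91 in SAMR1, 8.09 in nontreated SAMP8 and 7.46 after TG. It was the 1 gene of these 4 past the limit, lower after TG by a log2 difference of -0.63 (1.55-fold), with 2.96% of all probe sets as far down. Over the 4 receptor members and these 4 genes together, 6 were lower, 1 higher and 1 equal after TG, with a median of -0.12 (5 lower, 2 higher and a median of -0.06 after quantile normalization). Sort1 and Sorcs2, both receptors for the BDNF precursor, were the lowest of these 8 after TG, and only Sorcs2 was past 1.5-fold.

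**Figure D3:**
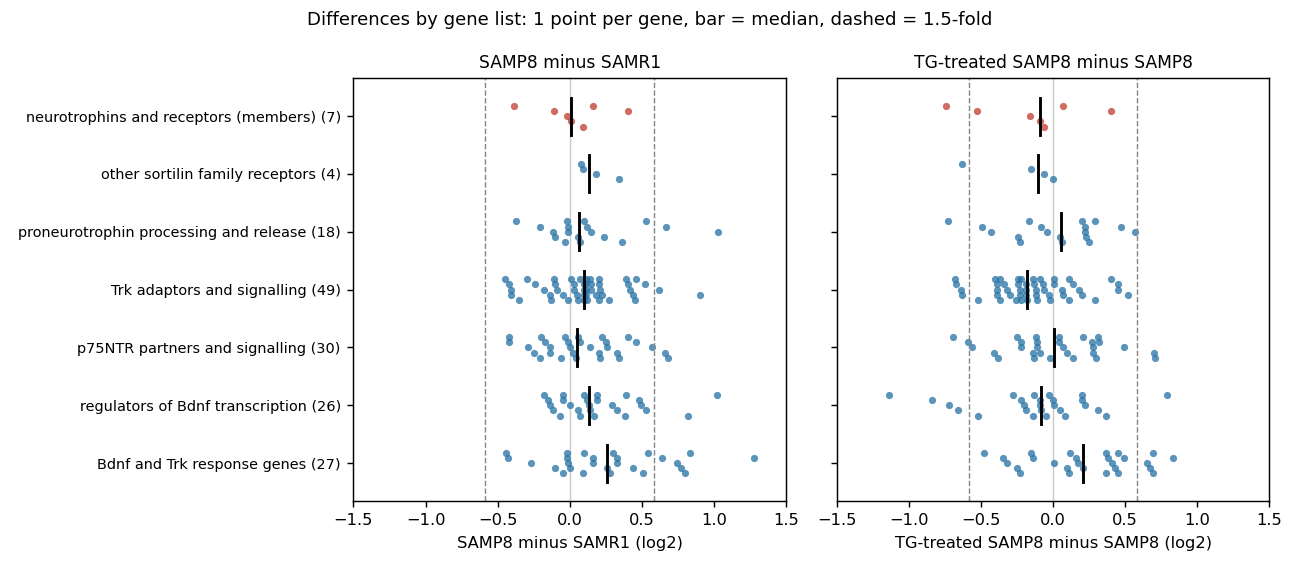
Differences of group averages (log2, horizontal axes) for the members (red) and for the genes of 6 pathway lists (blue), 1 point per gene with the number of genes measured in parentheses. Black bars are list medians and dashed lines 1.5-fold. The response genes had medians of 0.26 and 0.21, to the right of 0 in both panels, and the Trk signalling genes had medians of 0.10 and -0.18.

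Genes that cut and release the precursors came next in the pathway. Of 18, 2 were higher and 0 lower past the limit in SAMP8 than in SAMR1, beside 5.0% and 6.08% of all probe sets, with a median difference of 0.06. These were Serpini1 and Pcsk1. Serpini1 encodes neuroserpin, the neuronal inhibitor of tissue plasminogen activator, and averaged 13.20 in SAMR1, 14.23 in nontreated SAMP8 and 13.74 after TG. The strain difference of Serpini1 was 1.03. Pcsk1, a prohormone convertase of secretory granules, averaged 7.06, 7.73 and 7.95, and Cpe, the carboxypeptidase that sorts the BDNF precursor to the regulated pathway, averaged 12.81, 13.34 and 13.59.

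After TG, 0 of the 18 were higher and 1 lower past the limit, beside 4.48% and 3.74% of all probe sets. That gene was Pcsk7, a ubiquitous convertase, which averaged 5.97 in SAMR1, 6.33 in nontreated SAMP8 and 5.60 after TG. Pcsk6, another convertase, averaged 7.24, 6.87 and 7.44 and was inside the limit. Between TG-treated SAMP8 and SAMR1, 2 of the 18 were higher and 0 lower past the limit, beside 5.62% and 4.83% of all probe sets. These were Pcsk1 and Cpe, with differences of 0.89 and 0.78.

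Downstream of the Trk receptors, 49 adaptor and kinase genes were measured. In SAMP8 against SAMR1, 2 were higher and 0 lower past the limit, beside 5.0% and 6.08% of all probe sets, with a median of 0.10. After quantile normalization 1 was higher past the limit and the median was 0.00. Irs2, an adaptor between receptor kinases and PI3 kinase, averaged 10.18 in SAMR1, 11.08 in nontreated SAMP8 and 10.40 after TG. Plcg1, the phospholipase that docks on activated Trk receptors, averaged 10.23, 10.85 and 10.33. Shc3, a neuronal Trk adaptor, averaged 12.67, 13.19 and 13.00 and was inside the limit.

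After TG, 0 of the 49 were higher and 4 lower past the limit (3 lower after quantile normalization), beside 4.48% and 3.74% of all probe sets. In direction alone 35 were lower and 14 higher, with a median of -0.18 beside 0.01 over all probe sets (34 lower and a median of -0.12 after quantile normalization). The 4 were Irs2, Gab1, Rps6ka2 and Slitrk5. Gab1, a docking protein for PI3 kinase, averaged 7.96, 8.07 and 7.40, and Rps6ka2, a kinase downstream of ERK, averaged 8.90, 8.81 and 8.17. Slitrk5, a synaptic adhesion protein that binds TrkB and aids its recycling, averaged 11.94, 12.34 and 11.71 and was named after its values were seen.

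Of 30 measured partners of p75NTR, 2 were higher and 0 lower past the limit in SAMP8 than in SAMR1, beside 5.0% and 6.08% of all probe sets. After TG 2 were higher and 2 lower, beside 4.48% and 3.74%, so neither count was far from the background. After quantile normalization 1 was higher past the limit between the strains, and 2 were higher and 1 lower after TG. The median differences were 0.05 (-0.02 after quantile normalization) and 0.01. Traf2, an adaptor of the tumour necrosis factor receptor family, averaged 5.08 in SAMR1, 5.76 in nontreated SAMP8 and 6.25 after TG. Rhoa, the small GTPase that p75NTR activates through myelin inhibitors, averaged 9.72, 10.38 and 10.13. Traf6, an adaptor that binds p75NTR directly, averaged 7.28, 7.85 and 7.16 and was lower past the limit after TG.

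Both genes that were higher after TG, Fscn1 and Mag, are used beyond p75NTR. Fscn1, an actin bundling protein, averaged 10.69, 11.03 and 11.73. Mag, a myelin ligand of the Nogo receptor and p75NTR complex, averaged 6.87, 6.66 and 7.37. Mag is itself an oligodendrocyte marker, and of the 7 such markers 3 were higher and 0 lower past the limit after TG. These counts stood beside 4.48% and 3.74% of all probe sets, and the markers' median was 0.47. The mean of their averages was 11.72 in SAMR1, 11.48 in nontreated SAMP8 and 11.92 after TG, and their part in the Mag value was not tested. The other gene past the limit and lower after TG was Mapk10, a Jun kinase of neurons, at 15.21, 15.46 and 14.87 and named after its values were seen.

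Transcription of Bdnf is set by calcium-driven kinases and transcription factors, of which 26 were measured. In SAMP8 against SAMR1, 2 were higher and 0 lower past the limit, beside 5.0% and 6.08% of all probe sets. The median was 0.14 (0.08 after quantile normalization). The 2 genes past the limit are named next. They were Nr4a1 and Camk2b. Nr4a1, an immediate early nuclear receptor, averaged 7.78 in SAMR1, 8.80 in nontreated SAMP8 and 9.17 after TG. Hdac2, a histone deacetylase at the Bdnf locus, averaged 10.52, 11.05 and 10.97 and was inside the limit.

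After TG, 1 of the 26 was higher and 4 were lower past the limit, beside 4.48% and 3.74% of all probe sets. The median was -0.08, and -0.01 after quantile normalization, where 11 were higher and 14 lower in direction alone. Camk2b, a subunit of the kinase CaMKII, averaged 17.68, 18.50 and 17.36, a log2 difference of -1.14 after TG. Kcnip3, the calcium-binding repressor DREAM, averaged 10.95, 11.43 and 10.59. The other 2, Crtc1 at 14.17, 14.36 and 13.70 and Carf at 6.71, 6.83 and 6.11, encode a coactivator of CREB and a calcium response factor that binds a Bdnf promoter, and were chosen once their values were known. The 1 that was higher was Npas4, an activity-induced factor that drives Bdnf, at 5.73, 5.86 and 6.65. Factors that act on Bdnf promoters thus lay on both sides, with Npas4 higher and Carf lower after TG.

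The last list held 27 genes known to be induced by BDNF, by Trk signalling or by neuronal activity. In SAMP8 against SAMR1, 6 were higher and 0 lower past the limit, beside 5.0% and 6.08% of all probe sets, with a median of 0.26. After TG, 5 were higher and 0 lower, beside 4.48% and 3.74%, with a median of 0.21. Bdnf itself was higher in SAMP8 than in SAMR1 and lower after TG, so after TG it lay opposite to the median of this list.

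Between TG-treated SAMP8 and SAMR1, 9 of the 27 were higher and 0 lower past the limit, beside 5.62% and 4.83% of all probe sets. In direction alone 25 were higher and 2 lower, with a median of 0.44 (23 and 4, with a median of 0.38, after quantile normalization). Over all probe sets 10671 were higher and 11195 lower, with a median of -0.01. The 2 listed genes that were lower were Fosb and Nptx1, both at -0.27. Of the 5 general neuron markers, 4 were higher and 0 lower in direction in the same comparison, with a median of 0.14, and their part in the response genes' values was not tested. Bdnf was at -0.34 in this comparison.

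**Figure D4:**
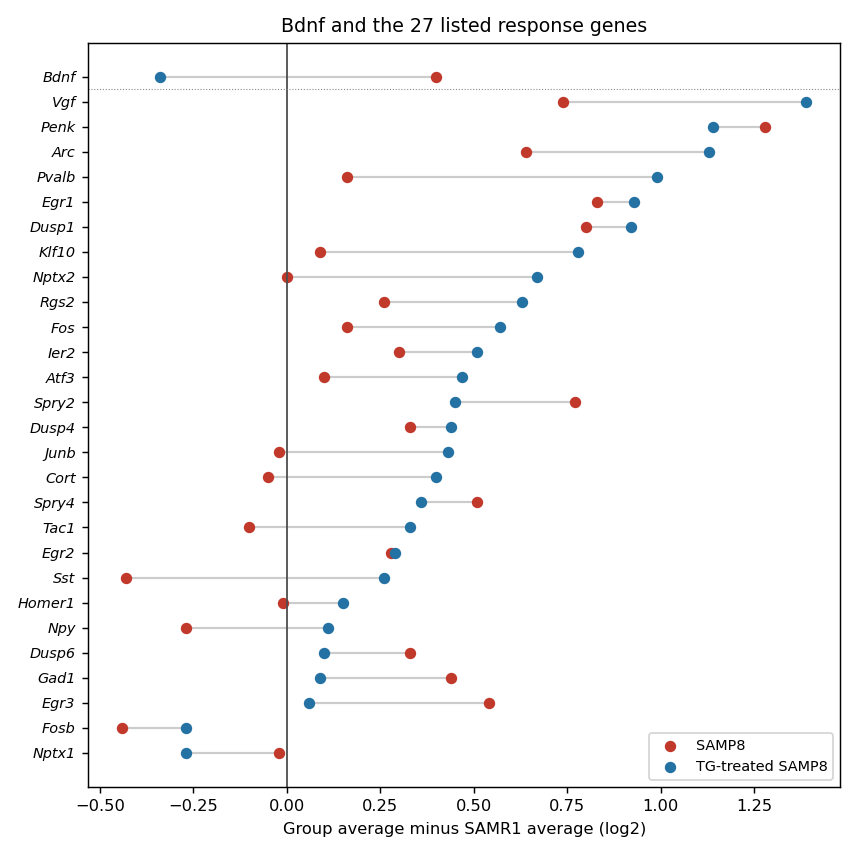
Averages of SAMP8 (red) and TG-treated SAMP8 (blue) minus the SAMR1 average (log2, horizontal axis) for Bdnf and for the 27 response genes, ordered by the blue value. Both colours share the same SAMR1 average, and the vertical line at 0 marks it. Bdnf was at 0.40 in SAMP8 and at -0.34 in TG-treated SAMP8, whereas 25 of the 27 blue points of the response genes lie to the right of 0. Over all probe sets 10671 were higher and 11195 lower in TG-treated SAMP8 than in SAMR1.

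Penk, the precursor of enkephalin, had the largest strain difference of the list, with averages of 8.03 in SAMR1, 9.31 in nontreated SAMP8 and 9.17 after TG. Egr1, an immediate early transcription factor, averaged 11.75, 12.58 and 12.68, and Dusp1, a phosphatase that turns off MAP kinases, averaged 8.86, 9.66 and 9.78. These 3 were past the limit in SAMP8 and differed little after TG. The others past it in SAMP8, named after their values were seen, were Spry2, a brake on receptor kinases, at 8.79, 9.56 and 9.24, Vgf at 7.11, 7.85 and 8.50, and Arc at 6.88, 7.52 and 8.01.

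Vgf, a secreted neuropeptide precursor, was past the limit in both steps and stood 1.39 above SAMR1 in TG-treated SAMP8. Arc, a regulator of AMPA receptor traffic, stood 1.13 above it. Pvalb, the calcium buffer of fast-spiking interneurons, averaged 6.66, 6.82 and 7.65, Klf10, a growth-factor-induced transcription factor, averaged 6.31, 6.40 and 7.09, and Sst, the peptide of another interneuron class, averaged 11.74, 11.31 and 12.00. Nptx2, a synaptic pentraxin that was named after its values were seen, averaged 6.53, 6.53 and 7.20. These 4 were past the limit and higher after TG.

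Pvalb and Sst are also markers of inhibitory neurons. Of 6 such markers, 1 was higher and 0 lower past the limit in SAMP8 than in SAMR1, beside 5.0% and 6.08% of all probe sets. After TG 3 were higher and 0 lower, beside 4.48% and 3.74%. The medians of the inhibitory neuron markers were 0.18 and 0.24. Gad2, a general marker of these cells, was at 11.04, 10.83 and 10.40 and Gad1 at 11.73, 12.17 and 11.82, both below the nontreated SAMP8 average after TG. The part of these cells in the Pvalb and Sst values was not tested.

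The genes whose first 2 differences (SAMP8 against SAMR1, and after TG) lay nearest to those of Bdnf were Gpd1l, Adck2, Drp2, Rbpj and Stk26. Their distances over these 2 differences were 0.014 to 0.02 on the log2 scale, whatever the level of their averages. Rbpj, the DNA-binding partner of Notch, averaged 8.89 in SAMR1, 9.29 in nontreated SAMP8 and 8.57 after TG. In all, 63 probe sets lay within 0.1 of Bdnf. With 3 averages per gene, such likeness is a description of these tables only.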

How the data were processed

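Hippocampal RNA of 9 mice was hybridised to Clariom S Mouse arrays, 1 per mouse. The authors summarised the scanned intensities with the SST-RMA algorithm in Transcriptome Analysis Console, and the deposited values are log2 group averages with 2 decimals, 1 per group, in 1 table per comparison. The tables also hold the authors' own fold changes, p-values and adjusted p-values, which were not used. Groups follow the sample titles. The records' description field names another experiment and was set aside, and the series text speaks of duplicate RNA samples where the records list 3 per group.

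Differences of averages were computed with Python 3.11.15 and pandas 2.3.3, without a filter on signal or a pseudocount, and counted past a limit of 1.5-fold. The script was tested on simulated data. Where a symbol had several probe sets, the one with the highest mean was taken. Similar signal means the same of 20 equal classes by mean signal. Coordinates are those of RefSeq genes on GRCm38.p6, with 7 of 7 members matched by symbol. Pathway lists held 157 gene symbols, of which 154 had a probe set under that symbol. Named were all members, the 4 relatives of sortilin, the 3 genes of each list with the largest difference in each of the first 2 comparisons, the 5 symbols nearest to Bdnf, and markers set beside a member. The members and lists were chosen with earlier results of these data known. Some genes of the family are not reported here. The number of arrays limits the precision, and the averages carry no error.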

Additional observations from a re-analysis of the deposited data

How the results depend on the processing

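The groups were made of separate mice, so the design held no pairs. No array could be left out in turn, because only 1 average per group was analysed. Subtracting group medians kept the members' 21 differences and the 4 medians of ligands and receptors within 0.05, with 1 change of sign (Ntrk3, SAMP8 against SAMR1). Quantile normalization moved 2 values by over 0.1, both between SAMP8 and SAMR1, Bdnf to 0.26 and Ntrk2 to 0.03, and the receptors' median changed sign. Averaging the probe sets of a symbol could move no member, because each member had 1 probe set. Limits of 1.1, 1.2 and 2-fold took in 3, 2 and 0 members between SAMP8 and SAMR1 and 4, 3 and 0 after TG. Of the 154 measured pathway genes, 14 were past 1.5-fold between SAMP8 and SAMR1, where 11.1% of all probe sets were. At 1.1, 1.2 and 2-fold they numbered 95, 57 and 3, beside 65.5%, 40.8% and 2.22% of all probe sets. After TG 20 were past 1.5-fold, beside 8.2% of all probe sets. At 1.1, 1.2 and 2-fold they then numbered 109, 65 and 1, beside 63.4%, 38.2% and 0.761%. The larger counts follow from the lower limits. Over all probe sets, 1110 were higher and 1350 lower between SAMP8 and SAMR1, and 1380 higher and 1102 lower with group medians subtracted. Ntf5 was dimmer than most nose receptor probe sets, and the probe sets with signal like that of Ntf3 and Ngfr differed over a wide range between SAMP8 and SAMR1 (5th to 95th percentile -0.77 to 0.63).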
